A study of Mus musculus with 2 samples.

Results

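This account describes 10 genes of muscle wasting in the gastrocnemius, the large muscle of the calf: the FoxO transcription factors and the muscle ubiquitin ligases of the atrophy programme, with a pair of genes known to respond to FoxO. They are Foxo1, Foxo3 and Foxo4; the RING-type ligases Trim63, Trim54 and Trim55; the F-box genes Fbxo32 and Fbxo40; and Cdkn1a and Depp1. They were chosen by name out of 55536 annotated genes, in part because several stood higher in library 1. Their ratios between libraries are therefore a description, with no test.

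The study sequenced total RNA from gastrocnemius of adult female mice aged 8 to 10 months. The animals came from a 5xFAD by CAST cross: 5xFAD is a transgenic model of Alzheimer's disease whose transgenes, including mutated human APP, are driven by a promoter used for neurons, and CAST is a wild-derived inbred strain. The labels do not say whether the sampled mice carried the transgenes. There is 1 group of 2 libraries, labelled biological replicates 1 and 2 and called library 1 and library 2 here, each made from 300 ng of RNA with ERCC spike-ins. Both carry the same donor identifier and different sample identifiers, so the spread between them may be partly technical. No control group was analysed here. With 2 libraries of 1 group no gene was tested, and each mean has its SD beside it (n = 2).

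FoxO factors are transcription factors that Akt, a kinase downstream of insulin and IGF-1, phosphorylates and holds in the cytoplasm bound to 14-3-3 proteins. When Akt signalling is low, as in fasting, disuse or glucocorticoid excess, FoxO factors enter the nucleus and promote transcription of atrophy genes, best known among them Trim63 and Fbxo32. Trim63 encodes MuRF1 and Fbxo32 encodes atrogin-1, the substrate receptor of an SCF ubiquitin ligase; both mark proteins for the proteasome. Because FoxO activity is set largely by phosphorylation, the level of a FoxO mRNA is not a measure of FoxO activity.

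Library 1 held 35594289 expected counts and library 2 held 34541905, of which spike-ins took 0.479% and 0.505%. Genes at 1 TPM or more numbered 10994 and 11216. TPM is a gene's share of the transcripts of a library after correction for length, so levels of different genes can be compared on it. Each library was quantified by a first and a second program, and values are from the first quantifier unless the second is named. Between libraries, ratios were taken on expected counts scaled by TMM, a method that sets the typical gene to no change. A gene counted as measured at a mean of at least 5 TPM and a summed count of at least 100, which 6685 genes met. All 10 members met it, though Depp1 passed the 5 TPM mean only through library 1 (11.8 TPM, against 3.16 TPM in library 2). The expected counts of all 10 were whole numbers as deposited (no tolerance) in both libraries, as were those of 80.7% of measured genes.

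The ligase genes led the members by level, apart from Trim55, and Cdkn1a and Depp1 stood lowest. Trim63 was the most abundant on average and ranked 252nd by mean TPM among nuclear protein-coding genes, of which 10096 stood at 1 TPM or more. Trim54 ranked 286th, Fbxo40 379th, Fbxo32 393rd and Foxo4 798th. Trim55 ranked 2018th, Foxo3 3518th, Foxo1 4057th, Cdkn1a 4129th and Depp1 5091st. Neighbours whose ranges over the libraries overlapped were Trim63 and Trim54, Fbxo40 and Fbxo32, Foxo3 and Foxo1, Foxo1 and Cdkn1a, and Cdkn1a and Depp1. Of these pairs, Cdkn1a and Depp1 alone kept the same order in both libraries. The steps from Trim54 to Fbxo40, from Fbxo32 to Foxo4, from Foxo4 to Trim55 and from Trim55 to Foxo3 had ranges that did not overlap. The 10 genes together held 814 TPM in library 1 and 697 TPM in library 2, or 0.208% and 0.156% of the TPM of nuclear protein-coding genes.

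**Figure D1:**
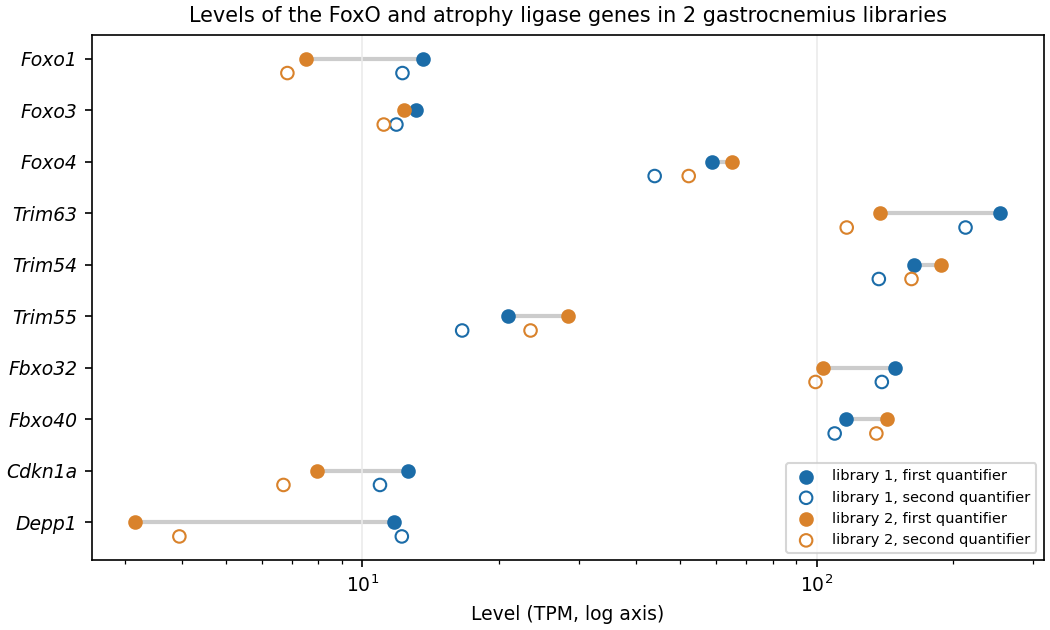
Level of each member in TPM (log axis) in library 1 and library 2, with filled points for the first quantifier, joined by a grey line, and open points for the second. Trim63 stood at 254 TPM and 138 TPM, and Depp1 at 11.8 TPM and 3.16 TPM.

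Foxo1, Foxo3 and Foxo4 share the forkhead DNA-binding domain and overlap in their targets. Foxo4 was the most abundant of the family in both libraries, and Foxo1 had the largest difference between them. Foxo4 stood at 58.7 TPM in library 1 and 65.1 TPM in library 2 (mean 61.9 ± 4.50 TPM). Foxo3 stood at 13.2 TPM and 12.4 TPM (mean 12.8 ± 0.566 TPM), the smallest SD among the 10 members. Foxo1, a factor also known for its part in insulin-responsive metabolism, stood at 13.6 TPM and 7.5 TPM (mean 10.5 ± 4.29 TPM). Foxo1 was thus level with Foxo3 in library 1 and below it in library 2: their within-library ratio was 1.03 and 0.607.

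On scaled counts, Foxo1 and Foxo3 were both lower in library 2. Foxo1 had 3533 and 1690 expected counts and a log2 ratio of library 2 over library 1 of -1.03 (95% counting interval -1.11 to -0.95). Foxo3 had 2519 and 1935 counts, a log2 ratio of -0.35 (-0.43 to -0.26), against -0.09 on deposited TPM. Foxo4 had 4960 and 4873 counts and a log2 ratio of 0.01 (-0.05 to 0.07), which became -0.06 when spike-ins set the scale and -0.02 on deposited TPM relative to the median of all genes. Foxo1 lay below, and Foxo3 and Foxo4 within, the central 95% of all measured genes, which ran from -0.48 to 0.36 on the log2 scale around a median of 0.00. Intervals are exact binomial, cover counting error only and are no test of a difference.

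Summed over the family, deposited FoxO TPM was 85.5 and 85.0, on a scale whose median gene leans 0.17 (log2) toward library 2. Shares within the family do not depend on that scale. Foxo4 held 68.7% of it in library 1 and 76.6% in library 2. Foxo1 held 15.9% and 8.83%, and Foxo3 held 15.4% and 14.5%. On mm10, Foxo1 lies on chromosome 3 (52268336 to 52353221, plus strand), Foxo3 on chromosome 10 (42181841 to 42276755, minus strand) and Foxo4 on chromosome X (101254528 to 101260873, plus strand). The annotated gene Gm20402, antisense to Foxo1, had 1 count and 0 counts, and Gm38034, inside Foxo1 on its strand, stood at 2.09 and 1.6 TPM.

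The MuRF proteins are RING-type ubiquitin ligases found at the sarcomere, where MuRF1 binds titin near the M-band. Trim63 and Trim54 changed places between the libraries. Trim63 stood at 254 TPM in library 1 and 138 TPM in library 2 (mean 196 ± 82.2 TPM). Trim54, which encodes MuRF3, a binder of microtubules and the Z-disc, stood at 164 TPM and 188 TPM (mean 176 ± 17.5 TPM). Trim55, which encodes MuRF2, stood at 20.9 TPM and 28.4 TPM (mean 24.6 ± 5.30 TPM). Trim63 was higher than Trim54 in library 1, by a ratio of 1.55, and lower in library 2, with a ratio of 0.732; the second quantifier gave 1.55 and 0.72.

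Trim63 lies on chromosome 4 (134315120 to 134329629), Trim54 on chromosome 5 (31116712 to 31137630) and Trim55 on chromosome 3 (19644474 to 19692421), all on the plus strand. Trim63 had 13644 and 6440 counts and a log2 ratio of -1.05 (-1.09 to -1.01), a 2.07-fold difference. Trim54 had 6636 and 6607 counts and a log2 ratio of 0.03 (-0.02 to 0.08), which became -0.04 under spike-in scaling. Trim55 had 1424 and 1557 counts and a log2 ratio of 0.16 (0.06 to 0.27), positive under each scaling run. Among the MuRF genes, Trim63 was the one outside the central 95% of measured genes. Its share of MuRF TPM was 57.9% in library 1 and 38.9% in library 2, against 37.3% and 53.1% for Trim54 and 4.76% and 8.00% for Trim55.

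The bases before the start site are shown for Trim63, for its paralog Trim54, and for Cdkn1a and Depp1, which are known as FoxO-responsive genes. They come from RefSeq on GRCm38.p6, the mm10 assembly, and are printed 5′ to 3′ on the plus strand. Capitals mark matches to the forkhead motif TTGTTTAC and to TATAAA, a core promoter element. The Cdkn1a window is that of its leading transcript; a further RefSeq start of Cdkn1a, at 29090979, lies upstream of it. The Trim54 window precedes a RefSeq start at 31116612, upstream of the start of its leading GENCODE transcript at 31116712. The bases next to that GENCODE start are therefore not shown and were not searched for motifs. The Depp1 window is shortened to end before the start of its leading GENCODE transcript. The windows are chr4:134314870-134315119 (Trim63), chr5:31116362-31116611 (Trim54), chr17:29093519-29093768 (Cdkn1a) and chr6:116650434-116650608 (Depp1).
Trim63: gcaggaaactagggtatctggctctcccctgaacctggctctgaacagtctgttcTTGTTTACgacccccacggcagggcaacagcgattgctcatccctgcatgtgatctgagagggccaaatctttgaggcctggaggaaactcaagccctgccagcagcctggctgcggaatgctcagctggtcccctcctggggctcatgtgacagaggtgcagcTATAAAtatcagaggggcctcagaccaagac
Trim54: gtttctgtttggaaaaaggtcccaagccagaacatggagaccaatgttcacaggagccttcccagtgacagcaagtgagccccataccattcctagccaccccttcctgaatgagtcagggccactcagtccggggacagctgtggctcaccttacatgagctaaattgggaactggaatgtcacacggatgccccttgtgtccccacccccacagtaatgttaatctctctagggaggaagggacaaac
Cdkn1a: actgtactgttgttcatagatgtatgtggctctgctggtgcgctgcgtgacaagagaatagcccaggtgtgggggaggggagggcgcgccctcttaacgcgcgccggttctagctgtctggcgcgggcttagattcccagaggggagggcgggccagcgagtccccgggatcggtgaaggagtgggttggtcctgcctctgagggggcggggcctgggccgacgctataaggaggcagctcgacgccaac
Depp1: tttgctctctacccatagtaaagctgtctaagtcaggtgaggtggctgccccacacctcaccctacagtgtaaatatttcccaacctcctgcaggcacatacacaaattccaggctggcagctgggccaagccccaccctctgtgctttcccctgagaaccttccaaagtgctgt

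The search covered 300 bases per start site, 250 before it and 50 from it on, on both strands. The RefSeq table used here gave 9 such windows for 7 members; Foxo4, Trim55 and Fbxo32 were not analysed for motifs. Of the 9, the Trim63 window alone held an exact match to any of the motifs searched. Forms of these motifs that differ by a base were not searched, so a window without a match may still hold them. TTGTTTAC lay on the plus strand from 195 bases before the start site, and the forkhead motif GTAAACA overlapped it on the minus strand, so both mark 1 place. TATAAA lay 31 bases before the start site. Over 32851 windows of 27025 genes, TTGTTTAC occurred in 1.23%, GTAAACA in 3.65% and TATAAA in 13.6%. The forkhead variant CAAAACA, found in 6.28% of windows, was in none of the 9. A match here describes letters in a window and not binding.

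**Figure D2:**
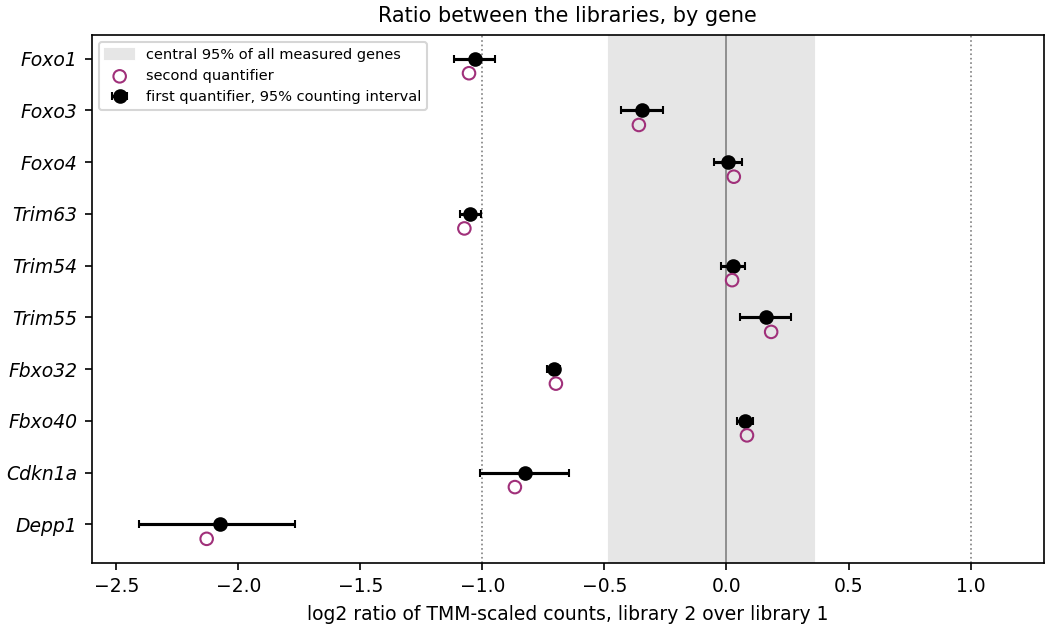
Log2 ratio of library 2 over library 1 of TMM-scaled counts for each member, with its 95% counting interval (filled points) and the second quantifier (open points); the grey band is the central 95% of measured genes and dotted lines mark 2-fold. Depp1, Trim63 and Foxo1 lie past the 2-fold line on the library 1 side.

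F-box proteins are the subunits that bring substrates to SCF ubiquitin ligases. Fbxo32 and Fbxo40 also changed places. Fbxo32 stood at 149 TPM in library 1 and 103 TPM in library 2 (mean 126 ± 32.4 TPM). Fbxo40, a muscle F-box protein known to target the insulin receptor substrate IRS1, stood at 116 TPM and 143 TPM (mean 130 ± 18.9 TPM). Their within-library ratio was 1.28 in library 1 and 0.721 in library 2, and 1.27 and 0.734 by the second quantifier. Fbxo32 held 56.2% of their combined TPM in library 1 and 41.9% in library 2.

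Fbxo32 lies on chromosome 15 (58175879 to 58214932) and Fbxo40 on chromosome 16 (36963460 to 36990467), both on the minus strand. Fbxo32 had the most counts of any member, 31137 and 18640, and a log2 ratio of -0.71 (-0.73 to -0.68), a 1.63-fold difference. Fbxo40 had 14651 and 15079 counts and a log2 ratio of 0.07 (0.04 to 0.11). The counting interval of Fbxo32 is narrow because of its depth, and it does not cover variation between animals or dissections. Trim63 stood above Fbxo32 in both libraries, by ratios of 1.71 and 1.34.

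Cdkn1a encodes p21, a cyclin-dependent kinase inhibitor, and Depp1 encodes a small protein known as a FoxO-induced regulator of autophagy. Both were higher in library 1. Cdkn1a stood at 12.6 TPM and 7.95 TPM (mean 10.3 ± 3.31 TPM), with 688 and 379 counts and a log2 ratio of -0.83 (-1.01 to -0.64). Depp1 stood at 11.8 TPM and 3.16 TPM (mean 7.46 ± 6.08 TPM), with 442 and 102 counts and a log2 ratio of -2.08 (-2.41 to -1.77), a 4.22-fold difference. Depp1 ranked 4th from the lowest ratio among all measured genes, Trim63 19th, Foxo1 24th, Cdkn1a 45th and Fbxo32 83rd. Depp1 was below 5 TPM in library 2, so its place among measured genes rests on its level in library 1. The Depp1 span on chromosome 6 (116650609 to 116652794, plus strand) lies wholly within that of Rassf4 on the opposite strand. Rassf4 had 79 and 57 counts, 0.65 and 0.55 TPM, and no source used here states whether the counting used strand. Cdkn1a lies on chromosome 17 (29090976 to 29100727, plus strand).

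Read against all measured genes, the count of members was as follows, with nothing inferred since the ratios helped to choose them. At least 2-fold lower in library 2 were 3 members (Depp1, Trim63 and Foxo1), against 0.389% of measured genes. At least 2-fold higher were 0 members, against 0.12%. At least 1.5-fold lower were 5 members, with Fbxo32 and Cdkn1a added, against 1.75%, and at least 1.5-fold higher were 0, against 0.583%. A log2 ratio below 0 was found for 6 members, against 49.3% of measured genes and 49.8% of those at 1 TPM or more. The median log2 ratio of the members was -0.53. On either side of the 2-fold threshold lay Foxo1 at -1.03 inside and Cdkn1a at -0.83 outside.

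Deposited TPM shifts the median of all measured genes by 0.17 on the log2 scale relative to no change, so TPM differences of the members lean that much toward library 2. On deposited TPM, Depp1 alone was 2-fold apart, and the log2 ratios of Trim63 and Foxo1 were -0.88 and -0.86. Over the 11 scalings and quantifications run, Foxo1 ranged from -1.10 to -0.84, Trim63 from -1.11 to -0.87, Fbxo32 from -0.77 to -0.48, Cdkn1a from -0.92 to -0.67 and Depp1 from -2.14 to -1.63. All 5 kept their direction in each.

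**Figure D3:**
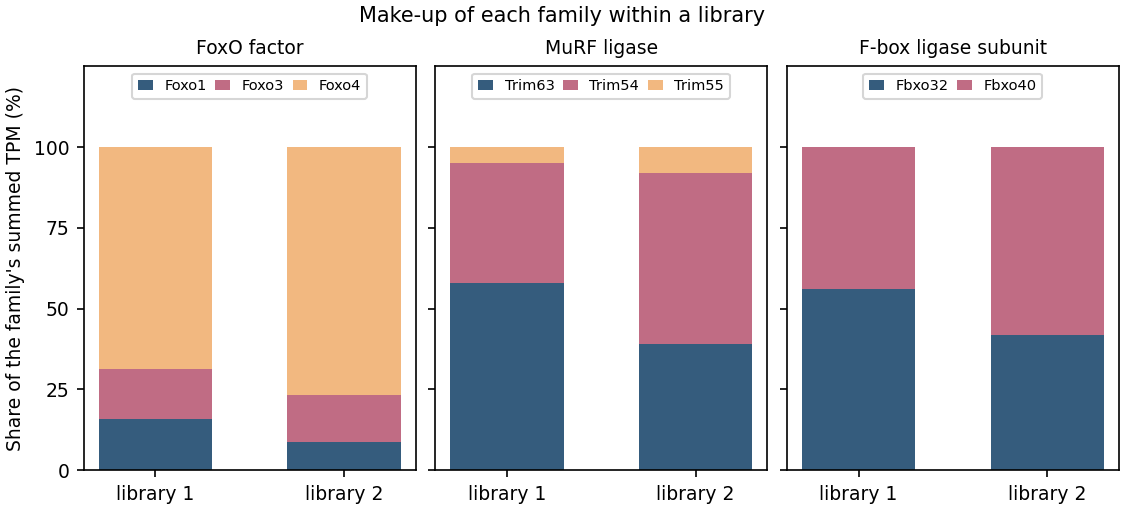
Share of each member in the summed TPM of its family (percent) in library 1 and library 2, for the FoxO, MuRF and F-box genes. Foxo1, Trim63 and Fbxo32 hold larger shares in library 1, and Foxo4, Trim54 and Fbxo40 in library 2. Foxo3 goes with Foxo1 (15.4% and 14.5%), and Trim55 goes with Trim54 (4.76% and 8.00%).

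Transcript makeup was not used to choose the members. Foxo1 and Fbxo32 have a single annotated transcript each. In Trim63, the leading protein-coding transcript held 97.3% of gene TPM in library 1 and 98.6% in library 2, and a transcript with a retained intron held 2.62% and 1.13%. The leading transcript held 99.2% and 99.8% in Trim54 and 94.5% and 100% in Cdkn1a. By the second quantifier, the leading Cdkn1a transcript held 85.8% and 89.1%. In Foxo3, the leading transcript held 90.6% and 82.7%.

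In 3 genes a noncoding transcript also held at least 10% of TPM. In Foxo4, a processed transcript held 13.2% and 10.1% beside the coding one at 86.6% and 89.9%. In Trim55, a processed transcript held 12.1% and 19.5%, from 31.1 and 59.1 expected counts. In Fbxo40, a processed transcript held 17.4% and 19.5% beside the leading coding one at 80.2% and 77.0%. The second quantifier gave the processed transcript of Foxo4 0.386% and 0.851% and that of Trim55 0% and 7.75%, so these shares depend on the quantifier. It gave that of Fbxo40 15.1% and 17.3%. To a transcript of Fbxo40 with a retained intron, the second quantifier gave 13.8% and 10.8%, against 1.2% and 1.94% by the first.

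Depp1 was the member whose transcript shares differed most. The transcript that led in library 1 held 88.8% of Depp1 TPM there and 44.2% in library 2, and a slightly shorter one held 11.2% and 55.8%. The longer one had 393 and 45.5 expected counts and the shorter one 48.8 and 56.5, so the difference in Depp1 counts lay in the longer one. Their annotated exons differ by 19 bases at the start of the first exon and 3 bases at the start of the second, and reads that miss those bases cannot tell them apart. The second quantifier gave the longer one 90.2% and 35.3%, the shorter one 9.79% and 44.2%, and a further Depp1 transcript 0% and 20.5%.

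**Figure D4:**
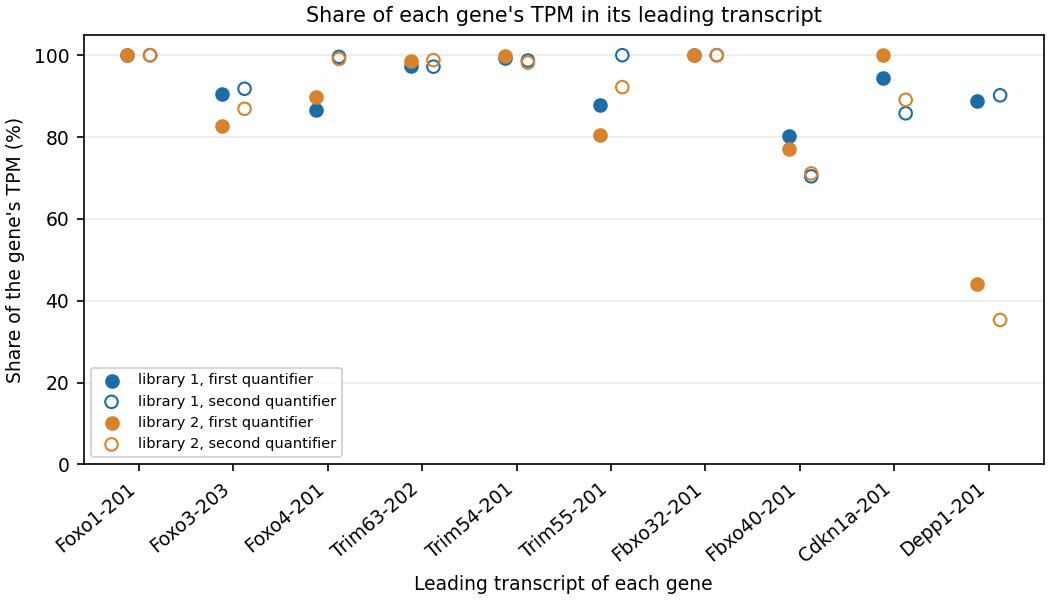
Share of gene TPM (percent) held by the leading transcript of each member, for library 1 and library 2 and both quantifiers. That of Depp1 is at 88.8% in library 1 and 44.2% in library 2 by the first quantifier, and those of the other members lie between 70.4% and 100%.

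In the related gene lists, counts past a fold threshold cover measured genes, at a mean of 5 TPM or more, so weaker genes with large ratios are not in them. Of all measured genes, 1.75% were at least 1.5-fold lower in library 2 and 0.583% at least 1.5-fold higher. At 2-fold these shares were 0.389% and 0.12%, so a count of 0 in lists this short is near the share over all genes. Of all genes at 1 TPM or more, 49.8% had a log2 ratio below 0. Like the members, the lists were chosen with earlier results of these data known. Upstream of the FoxO factors, 26 of 26 genes of FoxO regulation (kinases, phosphatases, 14-3-3 proteins and cofactors) stood at 1 TPM or more, and they divided evenly, 13 lower and 13 higher in library 2, with a median log2 ratio of -0.01 beside 0.00 for all genes at that level. Pik3r1, the regulatory subunit of PI3-kinase, was 24.0 and 16.1 TPM with a log2 ratio of -0.73, the one of 19 measured genes past 1.5-fold. Irs2, an insulin receptor substrate, was at 6.11 and 5.99 TPM (-0.20). Igf1 was at 2.80 and 2.71 TPM with a log2 ratio of 0.25 on counts, so its TPM and its scaled counts differ in direction. Foxo6, a further FoxO gene, was at 1.06 and 2.09 TPM (0.80). Ywhae, a 14-3-3 protein, was the most abundant, at 208 and 241 TPM (0.06).

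Of 31 other FoxO targets, 30 stood at 1 TPM or more, with 23 lower and 7 higher in library 2 and a median log2 ratio of -0.22. Of the 26 measured, 0 passed 2-fold, and Pdk4 and Pnpla2 passed 1.5-fold. Pdk4, the kinase that shuts off pyruvate dehydrogenase, was at 230 and 138 TPM (log2 ratio -0.83), and Pnpla2, the triglyceride lipase of lipid droplets, at 143 and 107 TPM (-0.60). The highest log2 ratios were those of Hmox1, haem oxygenase, at 1.54 and 2.51 TPM (0.52), and Trp53inp2, at 88.9 and 119 TPM (0.23).

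Of 23 ubiquitin ligases outside the members, 19 stood at 1 TPM or more, with 9 lower and 10 higher, a median of 0.01 and 0 of 17 measured past 1.5-fold. Asb2, the most abundant, was at 225 and 211 TPM (log2 ratio -0.27). Fbxo31 was at 94.7 and 78.0 TPM (-0.41), Wwp1 at 61.9 and 79.2 TPM (0.20) and Fbxw7 at 5.85 and 8.42 TPM (0.29). Of the SCF scaffold, E1, E2 and ubiquitin genes, 22 of 22 were above 1 TPM, with 14 lower and 8 higher, a median of -0.03 and 0 of 21 measured past 1.5-fold.

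Proteins that MuRF and atrogin bind or mark, 18 of 18 at 1 TPM or more, gave 8 lower and 10 higher, a median of 0.01 and 0 of 15 measured past 1.5-fold. Ckm, muscle creatine kinase and a known MuRF1 partner, was at 14267 and 16993 TPM (log2 ratio 0.06), and Myom1, an M-band protein, at 594 and 560 TPM (-0.22). Of 22 p53 and cell cycle genes beside Cdkn1a, 21 were above 1 TPM, with 15 lower and 6 higher and a median of -0.10. Among the higher were the D-type cyclins Ccnd1, Ccnd2 and Ccnd3 (log2 ratios 0.14, 0.13 and 0.09 on counts), which are not arrest genes. Btg2 was at 8.54 and 5.55 TPM (-0.80) and Eda2r at 9.55 and 5.78 TPM (-0.72), the 2 of 16 measured past 1.5-fold. Ccng1 stood highest, at 258 and 306 TPM (0.07).

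Genes of glucocorticoid and fasting response had the lowest list median, -0.49 over 17 of 18 genes at 1 TPM or more. They share upstream signals with Trim63 and Fbxo32, and the part of those signals in the members' ratios was not tested. Of the 17 genes, 14 were lower and 3 higher. At 1.5-fold, 7 of the 17 were lower and 1 was higher. At least 2-fold lower were Cebpd, Mt1, Mt2 and Gpx3, and Nmrk2 was at least 2-fold higher. Cebpd stood at 12.4 and 5.34 TPM (log2 ratio -1.42) and Mt1, a metallothionein, at 27.8 and 16.3 TPM (-1.13). Nmrk2 stood at 5.72 and 20.7 TPM (1.68), and Per1, the next highest ratio, at 30.4 and 38.2 TPM (0.16). Pdk4 is in this list and in that of FoxO targets, and 10 genes are in more than 1 list.

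Denervation response genes, another setting in which Trim63 and Fbxo32 are known to be induced, numbered 13 of 18 at 1 TPM or more, with 8 lower and 5 higher and a median of -0.04. The list was not split into genes that rise and genes that fall on denervation, so these counts give no direction for such a response. The part of denervation in the members' ratios was not tested. Ankrd1 stood at 7.03 and 3.28 TPM (log2 ratio -1.25), the 1 of 8 measured past 2-fold, and Runx1 at 1.69 and 0.99 TPM (-0.76). Ankrd1 met the 5 TPM mean only through library 1. Hdac9 stood at 1.35 and 2.84 TPM (0.93), Fgfbp1 at 2.86 and 4.50 TPM (0.55) and Myh8 at 64.1 and 73.9 TPM (0.03).

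**Figure D5:**
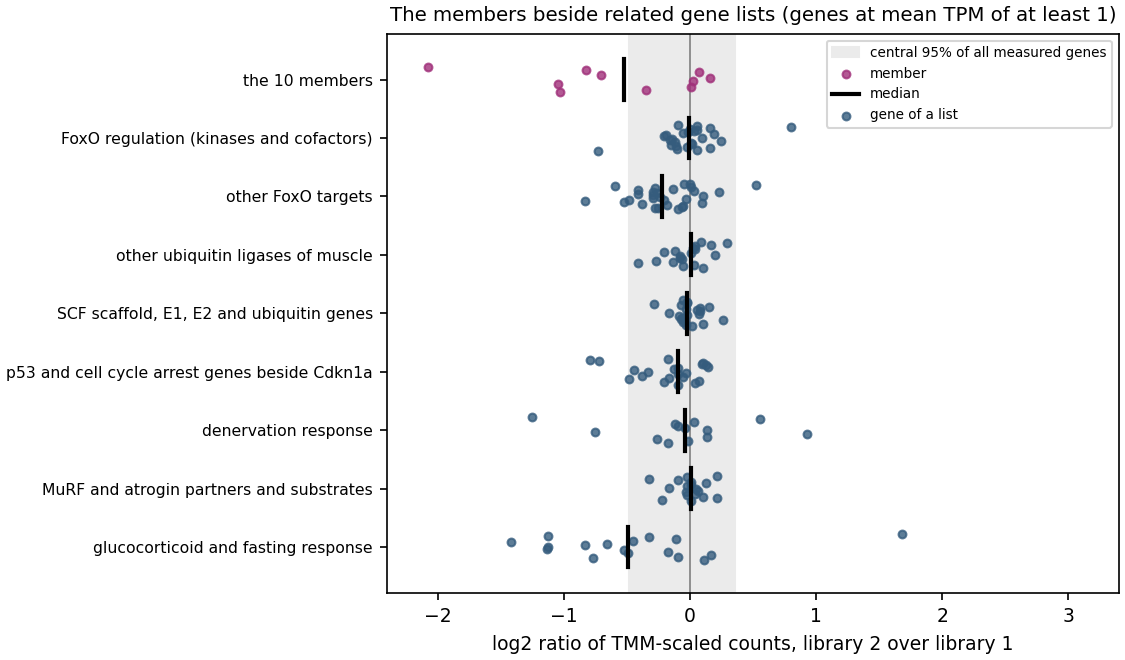
Log2 ratio of library 2 over library 1 for each gene at 1 TPM or more, in the members and in the 8 related lists; black bars are medians and the grey band is the central 95% of measured genes. The members' median, -0.53, comes from ratios that helped to choose them. The 8 lists were also chosen with earlier results of these data known, and their medians run from -0.49 to 0.01.

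The tissue label was checked against markers, and in bulk tissue fewer cells of a type and less RNA per cell cannot be told apart. All 6 markers of skeletal muscle fibres were measured, with summed TPM of 60400 and 69770, among them Acta1 at 16962 and 19000 TPM. Their median log2 ratio was 0.05, with 1 lower and 5 higher. Of macrophage markers, 7 of 9 stood at 1 TPM or more, all 7 lower in library 2, with a median of -0.47 and a summed level of 21.1 and 18.1 TPM. Cd68 and Adgre1 were below 1 TPM.

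Of Schwann cell markers, 4 of 5 stood at 1 TPM or more, all 4 lower (median -0.32, summed 26.3 and 25.7 TPM). The 6 endothelial markers gave 4 lower and 2 higher (median -0.11, 41.6 and 46.4 TPM). Fibroblast markers gave 2 lower and 3 higher (0.14, 139 and 159 TPM) and adipocyte markers 2 and 2 over 4 of 5 (0.05, 116 and 112 TPM). The 3 satellite cell markers summed to 0.82 and 1.54 TPM and the 3 lymphocyte markers to 0.3 and 0.42 TPM. For the endothelial and adipocyte lists, the summed TPM and the median ratio differ in direction. The macrophage and Schwann cell lists thus moved the same way as Trim63, Fbxo32, Foxo1, Cdkn1a and Depp1, and their part in the result was not tested.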

How the data were processed

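Total RNA of 2 gastrocnemius libraries was analysed. The deposited read-me gives mm10 and GENCODE M21; the names of the programs are not given in the sources used here. Expected counts, TPM and the percent of gene TPM per transcript were made by the authors and deposited in tables with the columns that RSEM writes. Estimated counts and TPM of the second quantification were deposited in tables with the columns that kallisto writes, and were summed here per gene. Expected counts were rounded and scaled by TMM (edgeR 4.0.16, R 4.3.3); log2 ratios used a pseudocount of 0.5 and exact binomial 95% intervals. On simulated data with 11186 genes, 200 changed 4-fold, 200 were recovered at 2-fold and 5 unchanged genes were called. These genes were filtered on counts and not at 5 TPM. No planted change was smaller than 4-fold, so the simulation does not show how genes near 2-fold, such as Foxo1 and Trim63, are called.

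Members and lists were chosen with earlier results of these data known. From each list of genes at 1 TPM or more, the most abundant and those with the 2 highest and 2 lowest ratios were eligible to be named; Mt2, Gpx3, Cd68 and Adgre1 were named after their values were seen. Alternatives were DESeq2 1.42.0 size factors, library totals, spike-in totals, no filter, a pseudocount of 5, a 1.5-fold threshold, TPM and the second quantification. Reads of CAST alleles were assigned to mm10, and the effect on single genes was not tested. Some items are not reported here.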

Additional observations from a re-analysis of the deposited data

How the results depend on the processing

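DESeq2 size factors, library totals, TMM without a filter, a pseudocount of 5 and TMM on the second quantification gave median log2 ratios of the members from -0.53 to -0.52 and 3 members at least 2-fold apart, and spike-in totals gave -0.59 and 3. On deposited TPM the median was -0.31 and 1 member was 2-fold apart; on the second quantifier's TPM they were -0.29 and 1. Both TPM scales shift the median of all measured genes, by 0.17 and 0.21. Relative to that median, an alternative chosen after seeing the data, they gave medians of -0.48 and -0.50. A 1.5-fold threshold gave 5 members. Members with a ratio below 0 numbered 6 by the main scaling, 8 under spike-in scaling, where Foxo4 and Trim54 changed sign, and 7 on deposited TPM relative to the median.

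The summed level of the members was 755 ± 82.7 TPM, 662 by the second quantifier and 1820 as TPM over nuclear protein-coding genes alone. The median share of the leading transcript was 93.4 ± 1.18% and 96.6% by the second quantifier. Without 1 replicate the summed level ranged from 697 to 814 TPM. No paired analysis was possible because there is 1 group. With 2 libraries, 1 library decides each ratio.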
